A study of Mus musculus with 68 samples.

Results

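The guidance genes described here are the ephrins (Efn), the Eph receptors, the semaphorins (Sema), the plexins (Plxn), the neuropilins (Nrp), Slit, Robo, netrin (Ntn) and the netrin receptors Unc5 and Dcc, chosen by gene symbol alone. Of 21948 genes in the expression table, 64 carried such a symbol. The annotation lists 69, of which Epha6, Ntn3, Ntn5, Plxnb3 and Sema7a were not analysed here. Of the 64 genes, 60 passed a filter on low values (at least 1 CPM, the abundance unit of the table, in at least 3 libraries). Epha5, Epha8, Epha10 and Robo3 did not, and all of their group means were under 1 CPM, from 0.144 to 0.57 for Epha5, 0.257 to 0.803 for Epha8, 0.0878 to 0.504 for Epha10 and 0 to 0.783 for Robo3.

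The study compared gene expression in pharyngeal arch 1 (PA1) and pharyngeal arch 2 (PA2) of mouse embryos labelled wildtype or Hoxa2-/-. All embryos had a mixed CBA/Ca/J and C57BL/10 background, and were taken at embryonic days E9.0, E9.5, E10.0 or E10.5. Whole arches were dissected by hand and polyadenylated RNA was sequenced after low-input amplification, with PA1 and PA2 taken from the same embryo. There were 68 libraries from 35 embryos, and both arches were sequenced for 33 embryos. Each of the 16 groups of arch, label and stage held 3 to 5 libraries. In wildtype these were 5, 5, 5 and 3 libraries of PA1 and 4, 4, 5 and 3 of PA2 from the earliest to the latest stage. Under the Hoxa2-/- label they were 4, 5, 5 and 3 libraries of each arch. Hoxa2 patterns PA2 and is not active in PA1, so the design asks how the arches differ, how the difference changes with stage and whether it depends on Hoxa2. The labels do not say which part of Hoxa2 the allele removes.

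Guidance molecules steer axons, vessels and migrating cells by local attraction or repulsion. Ephrins and Eph receptors signal between touching cells in both directions. Class 3 semaphorins are secreted and act through neuropilin and plexin complexes, secreted Slits act through Robo receptors, and netrins act through Dcc (attraction) and Unc5 (repulsion). In the pharyngeal arches these systems are known for keeping the streams of cranial neural crest apart, for patterning the arch arteries and for directing cranial nerves into the arches.

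Library depth ran from 8912251 to 20619153 reads, so 3 reads corresponded to at most 0.328 CPM. Hoxa2 was at 0 to 0.926 CPM in PA1 and 20.2 to 63.3 CPM in wildtype PA2, but at 16.8 to 147 CPM in PA2 labelled Hoxa2-/-. The median in PA2 was higher under the Hoxa2-/- label than in wildtype, at 30.8 against 22.9 CPM at E9.0 and 134 against 57.2 at E10.5. The Hoxa2 level was therefore not lowered under the Hoxa2-/- label. Since the removed part of Hoxa2 is not known, the level cannot settle whether the label holds. These libraries are called by their label throughout. Libraries also fell into 2 divisions that were not part of the design: Ski, a transcriptional co-repressor, was at 26.3 to 108 CPM in the 24 wildtype libraries of stages other than E10.0, and at 9.28 to 22.8 CPM in the 10 wildtype libraries of E10.0 and the 34 libraries labelled Hoxa2-/-. Comparisons between arches or between E9.0 and E10.5 stayed within a division, whereas label and division cannot be told apart at any stage but E10.0. Some libraries stood apart in cell type markers. Wildtype PA2 replicate 2 of E9.0 held 64244 CPM of red blood cell genes (3379 to 4940 in the other 3). Replicate 3 of PA2 labelled Hoxa2-/- at E9.0 held 465 CPM of yolk sac genes (3.94 to 18.3 in the others), and replicate 3 of PA1 labelled Hoxa2-/- at E9.5 held 1507 CPM of mesenchyme genes (639 to 733 in the others). In the group of that PA1 library Col1a2 averaged 343 CPM, against 90.6 to 157 in the other PA1 groups of that label. No other mesenchyme gene had a mean there above its means in those groups. Counts of arch differences without each of these 3 libraries are given beside those results. For all comparisons, ranges over each library left out in turn are given near the end. The labels describe the replicates as biological replicates.

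The promoters shown here stand for the opposite sides of the arch difference in wildtype at E9.0: Slit2 and Slit3, which were higher in PA2, and Sema3e and Epha3, which were higher in PA1. The 250 bases before their RefSeq start sites on GRCm38.p6 are shown 5′ to 3′ with CpG dinucleotides in capitals, because the windows differ in base composition. Slit2 lies at chr5:47982905-47983154 on the plus strand, Slit3 at chr11:35121206-35121455 on the plus strand, Sema3e at chr5:14025026-14025275 on the plus strand and Epha3 at chr16:63864176-63864425 on the minus strand.
Slit2: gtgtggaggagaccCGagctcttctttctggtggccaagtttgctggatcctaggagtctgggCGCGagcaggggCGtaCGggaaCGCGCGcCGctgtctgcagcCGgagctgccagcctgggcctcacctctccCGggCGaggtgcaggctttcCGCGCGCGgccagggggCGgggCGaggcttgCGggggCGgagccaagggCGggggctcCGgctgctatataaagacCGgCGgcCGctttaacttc
Slit3: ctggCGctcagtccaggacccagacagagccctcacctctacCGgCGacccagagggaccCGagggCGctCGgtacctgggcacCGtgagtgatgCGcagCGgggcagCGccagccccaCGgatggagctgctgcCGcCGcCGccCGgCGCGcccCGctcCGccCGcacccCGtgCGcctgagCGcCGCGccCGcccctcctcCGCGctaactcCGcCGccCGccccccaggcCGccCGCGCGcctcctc
Sema3e: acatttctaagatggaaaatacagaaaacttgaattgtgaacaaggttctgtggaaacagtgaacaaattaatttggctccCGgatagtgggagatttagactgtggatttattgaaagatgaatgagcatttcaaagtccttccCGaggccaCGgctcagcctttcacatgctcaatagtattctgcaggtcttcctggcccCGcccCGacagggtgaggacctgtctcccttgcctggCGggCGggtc
Epha3: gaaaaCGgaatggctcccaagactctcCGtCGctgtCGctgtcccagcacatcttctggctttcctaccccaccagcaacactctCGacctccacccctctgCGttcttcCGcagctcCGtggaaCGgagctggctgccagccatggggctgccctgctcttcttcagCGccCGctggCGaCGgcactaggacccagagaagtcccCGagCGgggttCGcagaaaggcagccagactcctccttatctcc
The Slit2 window had 25 CpG and 69.6% GC, the Slit3 window 35 CpG and 78.8% GC, the Epha3 window 16 CpG and 62.8% GC, and the Sema3e window 7 CpG and 48% GC. The medians over all promoter windows were 6 CpG and 52.4% GC. The letters TGACAG, a Meis factor motif, and TGATNNAT, a joint Hox and Pbx motif, were searched on both strands of the 250 bases before each start. Neither occurred in the 4 windows shown. TGACAG was present in 10 of 70 windows of the 54 guidance genes with an entry (14.3%, in Efna3, Efnb2, Ntn4, Plxna2, Robo2, Sema3g, Sema4d and Sema6c) and in 15.9% of all 32851 windows. TGATNNAT was present in 1 of 70 (1.43%, in Sema6d) and in 7.68% of all windows.

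Levels between genes were compared as CPM per kilobase of exon, averaged over the 68 libraries. Exon length was that of all annotated exons of a gene merged, so genes with long or many annotated exons are set lower. The highest was the receptor Ephb4, which marks veins, at 28.3 (group means 19.1 to 36.6), followed by the ligand Efna1 at 26.9, the class 4 semaphorin receptor Plxnb2 at 24.3, Efna2 at 22.2 and Efnb2, the arterial partner of Ephb4, at 21.5. The family ranges overlapped. Among other Eph receptors, Ephb3 stood at 9.23 and Epha3 at 6.76. Sema3a led the semaphorins at 8.46, ahead of Sema4c at 8.13 and Sema3f at 6.87. Plxnb1 at 6.69 and Plxna1 at 5.82 followed Plxnb2 among the plexins, and the neuropilins Nrp1 and Nrp2 stood at 5.72 and 3.67. Among the Slit genes, Slit3 was at 4.38, Slit2 at 1.34 and Slit1 at 0.992, against 2.13 for Robo1, 1.06 for the endothelial receptor Robo4 and 1.05 for Robo2. Not divided by length, Slit2 (25433 merged exon bases) averaged 34.2 CPM, Slit3 (6067 bases) 26.6 and Slit1 (5921 bases) 5.88. Ntn4 stood at 0.818 and Ntn1 at 0.814. Of the netrin receptors, Unc5b was at 3.17, Unc5c at 2.27 and the attractive receptor Dcc at 0.0528.

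**Figure D1:**
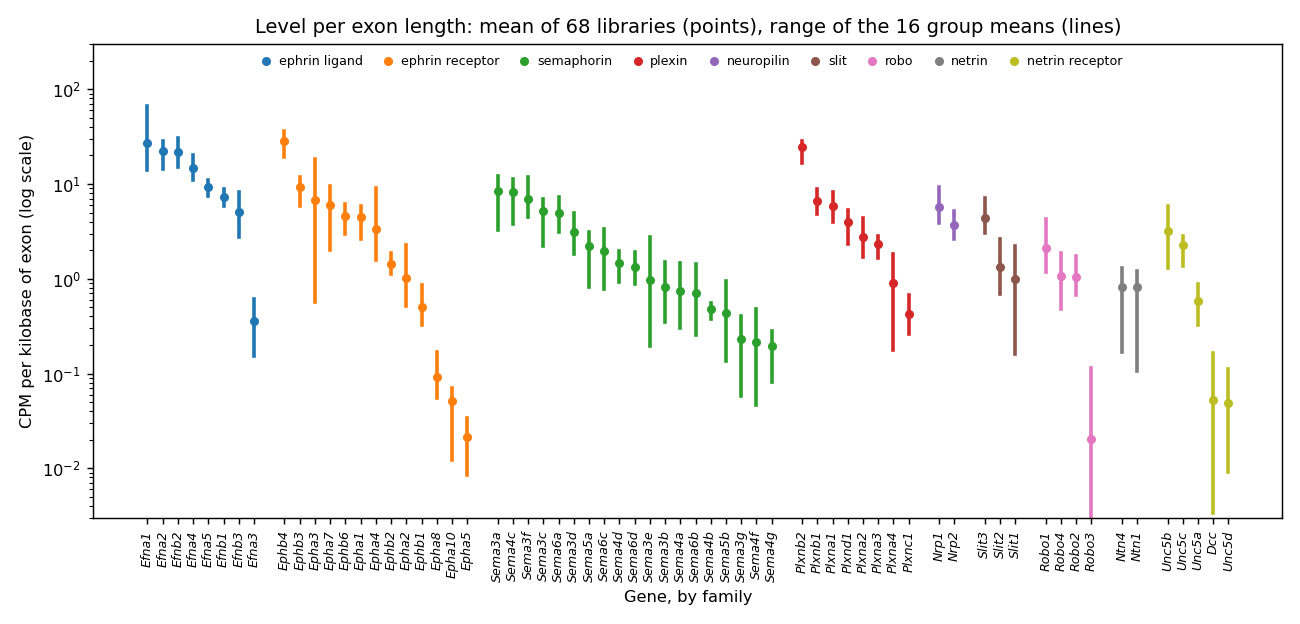
Level of each of the 64 guidance genes as CPM per kilobase of exon (log axis), grouped by family; points are means over 68 libraries and lines span the lowest to highest of the 16 group means. Ephb4, Efna1 and Plxnb2 are highest, at 28.3, 26.9 and 24.3, and Robo3, whose lowest group mean of 0 lies below the axis, is lowest at 0.0204.

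Guidance genes differed between the arches on both sides at E9.0 and mostly toward PA2 at E9.5, and few were called at E10.5. In wildtype at E9.0, 15 of the 60 tested genes were higher in PA2 and 13 were lower, where 10.2% and 8.53% of all 18428 tested genes were higher and lower. Without wildtype PA2 replicate 2, the library with the red blood cell genes, 14 were higher and 8 lower. E9.5 gave 23 higher and 3 lower (12.7% and 13.7% of all genes). With each library left out in turn, 18 to 31 were called at E9.5, without shares of all genes given here. Wildtype PA1 replicates 1 and 3 of E9.5 were low for some guidance genes. Efnb2 was at 76.8 and 64.9 CPM there (123 to 155 in the other PA1 libraries) and Plxnb1 at 30.8 and 21.3 (52.2 to 77.6). Efna1 was not low there (41.6 and 52.5, against 32.1 to 49.2). The count without both libraries is not given here. The E10.0 libraries gave 8 higher and 1 lower (4.51% and 1.43%), and those of E10.5 none higher and 1 lower (0.868% and 0.651%). At each of the first 3 stages the guidance genes lay above the share of all genes on the PA2 side, and at E9.5 they lay below it on the PA1 side. For the Hoxa2-/- label, E9.0 gave 13 higher and 13 lower (12.1% and 12.5% of all genes), E9.5 gave 11 and 2 (6.12% and 3.47%), E10.0 gave 7 and 0 (3.13% and 1.1%), and E10.5 gave 1 and 0 (0.982% and 0.385%). Without replicate 3 of PA2, the library with the yolk sac genes, the E9.0 counts under this label were 16 higher and 8 lower. Without PA1 replicate 3, with the high mesenchyme sum, those of E9.5 were 15 and 2. The median absolute difference over the 60 genes in wildtype was, in order of stage, 0.491, 0.499, 0.224 and 0.21, against 0.168, 0.2, 0.121 and 0.101 over all tested genes. Differences here and below are PA2 minus PA1 after taking log2(CPM + 1), with their standard error (SE); for low genes this scale gives less than the fold change. The limma adjusted p threshold was 0.05. At E10.5, 9 guidance genes in wildtype and 8 under the Hoxa2-/- label had an unadjusted p under 0.05, and edgeR on the recovered reads called 1 and 1. Groups of that stage held 3 libraries each, against 4 or 5 at the other stages. The part of group size in the fewer calls was not tested. In bulk tissue, fewer cells of a type and less RNA per cell cannot be told apart.

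The wildtype libraries and those labelled Hoxa2-/- share no samples, so their arch differences can be set side by side. At E9.0, 20 genes were called the same way under both labels, 71.4% of the wildtype calls and 76.9% of those under the Hoxa2-/- label. The E9.5 libraries shared 13 such genes (50% and 100%) and the E10.0 libraries 5 (55.6% and 71.4%). The matching shares over all genes are not given here, so these shares do not set the guidance genes apart. No gene was called in opposite directions at any stage. Sema5b and Sema4f were called in 6 of the 8 arch comparisons, Slit1, Slit2 and Sema3a in 5, and 17 of the 60 genes in none. The fit used so far did not pair the arches of an embryo. With the embryo as a replicate block, wildtype gave 14 higher and 16 lower at E9.0, and 30 and 5 at E9.5. The Hoxa2-/- label gave 15 and 15, and 14 and 4. Over all genes the block raised the wildtype calls from 3454 to 4198 and from 4854 to 5946, and those under the Hoxa2-/- label from 4527 to 5902 and from 1766 to 2922. The E10.0 counts rose to 15 in wildtype (12 higher, 3 lower) and 11 under the Hoxa2-/- label, and the E10.5 counts to 2 and 2. Over all genes the block also raised the E10.0 calls, from 1095 to 1747 in wildtype and from 779 to 1509 under the Hoxa2-/- label. The E10.5 calls over all genes rose from 280 to 421 and from 252 to 474. Fitted on the compared groups alone, the E9.0 count under the Hoxa2-/- label fell to 9, while its E10.0 count rose to 14, and the E10.5 counts rose to 7 in wildtype and 6 under the Hoxa2-/- label. The shares of all genes in those fits are not given here. The E10.0 count under the Hoxa2-/- label was 4 without PA1 replicate 2, PA1 replicate 4 or PA2 replicate 1.

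**Figure D2:**
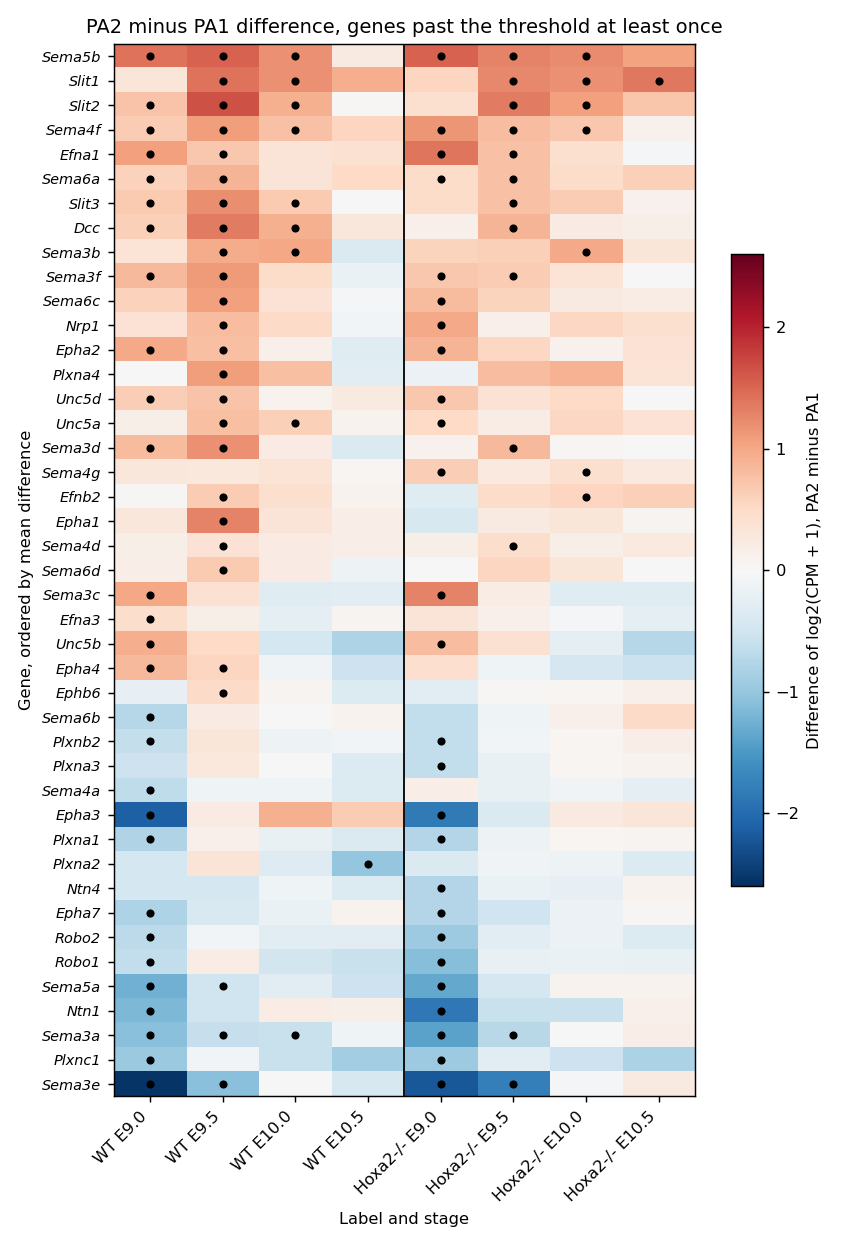
PA2 minus PA1 difference on the log2(CPM + 1) scale (colour) for the 43 guidance genes past the threshold at least once, in wildtype (left 4 columns) and under the Hoxa2-/- label (right 4 columns) at E9.0 to E10.5; dots mark adjusted p under 0.05. Colour and dots thin out toward E10.5, where 1 gene is marked under each label.

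Slits, the secreted ligands of Robo receptors, were the family with every member higher in PA2 at E9.5. Slit2 (ENSMUSG00000031558, chr5:47983138-48307733, plus strand, GRCm38) was at 14.9, 24.4, 12.8, 18.9 and 15.9 CPM in wildtype PA1 at E9.5 and at 52, 48.9, 55.5 and 67.4 in PA2. With the Hoxa2-/- label it was at 24.2, 20, 36.8, 23.4 and 23.9 in PA1 and at 62.9, 62.9, 65.6, 57.4 and 83.9 in PA2. The arches did not overlap under either label. The differences were 1.65 (SE 0.21, adjusted p = 4e-08) and 1.36 (SE 0.20, adjusted p = 9.3e-07). At E10.0 they were 0.92 (SE 0.20, adjusted p = 0.0011) and 1.07 (SE 0.20, adjusted p = 0.00016). Slit2 was also higher in wildtype PA2 at E9.0, by 0.75 (SE 0.21, adjusted p = 0.0081). All 5 of these calls held when any 1 library was left out. By E10.5 its wildtype difference was 0.04 (SE 0.26, adjusted p = 1.0): PA1 held 26.1, 22.3 and 25.2 CPM and PA2 held 22.8, 30.7 and 22.8, so the arches overlapped. Under the Hoxa2-/- label at E10.5 PA1 held 19.9, 22.9 and 25 CPM and PA2 37.3, 42.6 and 34.4, without overlap, but the difference of 0.73 (SE 0.26, adjusted p = 0.2) did not pass.

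Slit1 (ENSMUSG00000025020, chr19:41600257-41743665, minus strand) was the least abundant Slit per kilobase. In wildtype PA1 at E9.5 it was at 4.16, 6.56, 3.01, 5.13 and 2.59 CPM, and in PA2 at 14.7, 12.9, 16.3 and 8.09. Every PA2 library lay above every PA1 library, with a difference of 1.42 (SE 0.29, adjusted p = 0.00028). The Hoxa2-/- label gave 1.25 (SE 0.27, adjusted p = 0.0011), with 1 PA1 library, at 8.25 CPM, above the lowest PA2 library at 5.21. At E10.0 the differences were 1.18 (SE 0.27, adjusted p = 0.0025) and 1.19 (SE 0.27, adjusted p = 0.0034). Slit1 was the only guidance gene called between the arches labelled Hoxa2-/- at E10.5, at 0.542, 1.5 and 0.816 CPM in PA1 and 3.51, 4.72 and 3.72 in PA2, a difference of 1.37 (SE 0.35, adjusted p = 0.025). The wildtype difference at that stage was 0.94 (SE 0.35, adjusted p = 0.31), although the 3 PA2 libraries (2.9, 3.06 and 3.27 CPM) all lay above the 3 PA1 libraries (0.871, 1.05 and 1.51). The Slit1 calls at E9.5 and E10.0 held when any 1 library was left out, but the E10.5 call was lost without any of 5 of the 6 libraries (all but PA1 replicate 2) and with a pseudocount of 5.

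Slit3 (ENSMUSG00000056427, chr11:35121224-35708507, plus strand) was at 15.7, 26.5, 8, 22.6 and 22.9 CPM in wildtype PA1 at E9.5 and at 40.5, 29.7, 48.7 and 55.7 in PA2. The arches did not overlap and differed by 1.21 (SE 0.23, adjusted p = 9.9e-05). Differences of 0.69 at E9.0 (SE 0.23, adjusted p = 0.028) and 0.68 at E10.0 (SE 0.22, adjusted p = 0.049) also passed in wildtype. The Hoxa2-/- label gave 0.76 at E9.5 (SE 0.22, adjusted p = 0.016). Only the wildtype call at E9.5 held when any 1 library was left out; those at E9.0 and E10.0 were lost without any of 4 of 9 and 8 of 10 libraries, and that under the Hoxa2-/- label without any of 4 of 10. At E9.0 under that label, replicate 3 of PA2, which held the yolk sac genes, was the lowest of its group for Slit2 (13.8 CPM, the others 36.6 to 58) and Slit3 (12.1 CPM, the others 22.7 to 44.4), and neither gene was called. The part of those markers in these values was not tested. Without that library Slit2 and Slit3 were both called higher in PA2.

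The semaphorins that were higher in PA2 included both secreted and membrane-bound members. Sema5b (ENSMUSG00000052133, chr16:35541145-35664732, plus strand), a transmembrane semaphorin with thrombospondin repeats, was at 1.62, 0.976, 1.74, 1.52 and 2.7 CPM in wildtype PA1 at E9.0 and at 8.19, 3.31, 5.9 and 8.39 in PA2. Libraries labelled Hoxa2-/- at that stage gave 1.6, 0.794, 2.59 and 1.26 in PA1 and 12.4, 6, 3.88 and 4.89 in PA2. In neither case did the arches overlap. The Sema5b differences at E9.0, E9.5 and E10.0 were 1.42, 1.54 and 1.19 in wildtype (adjusted p at most 0.0003) and 1.54, 1.29 and 1.23 under the Hoxa2-/- label (adjusted p at most 0.0003). All 6 calls held when any 1 library was left out. At E10.5 the differences were 0.23 (SE 0.31, adjusted p = 1.0) and 1.04 (SE 0.31, adjusted p = 0.076). The low gene Sema4f, with no group mean above 2.52 CPM, was higher in PA2 by 0.67 to 1.14 under both labels at all stages but E10.5.

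Sema3f, a secreted ligand that acts through Nrp2, was at 32.9, 30.6, 26.1, 31.7 and 28.9 CPM in wildtype PA1 at E9.0 and at 53.6, 45.8, 67 and 52.8 in PA2, with no overlap. It was higher in PA2 by 0.84 (SE 0.17, adjusted p = 0.00019) at E9.0 and by 1.11 (SE 0.17, adjusted p = 1.9e-06) at E9.5, and under the Hoxa2-/- label by 0.70 (adjusted p = 0.0024) and 0.66 (adjusted p = 0.0035). Sema6a, a transmembrane ligand of A-type plexins, was higher by 0.59 and 0.88 in wildtype (adjusted p = 0.0081 and 0.00011) and by 0.47 and 0.77 under the Hoxa2-/- label (adjusted p = 0.045 and 0.00045). Sema3b, another secreted member, passed at E9.5 and E10.0 in wildtype (0.96 and 1.01, adjusted p = 0.021 and 0.03) and at E10.0 under the Hoxa2-/- label (0.98, adjusted p = 0.048). These Sema3b calls were lost without any of 2 of 9, 5 of 10 and 7 of 10 libraries, and the Sema6a call at E9.0 under the Hoxa2-/- label without any of 6 of 8. At E9.5 under that label Sema3b stood at 23.6 CPM in PA1 replicate 3 and at 1.3 to 4.03 in the other PA1 libraries, and was not called. Nrp1, the neuropilin that binds Sema3a, was 262 CPM in the same library and 40.4 to 61.7 in the others. This is the library with the high mesenchyme sum, in whose group Col1a2 stood out.

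Efna1 was the ephrin ligand with the most arch calls. This membrane-anchored ligand of EphA receptors (ENSMUSG00000027954, chr3:89271733-89281142, minus strand) stood at 38.1, 39, 35.7, 40.4 and 40.8 CPM in wildtype PA1 at E9.0 and at 106, 67.2, 78.5 and 82 in PA2. The lowest PA2 library was above the highest PA1 library, and the difference was 1.07 (SE 0.17, adjusted p = 3.3e-06). Arches labelled Hoxa2-/- gave, at the same stage, 48.4, 41.5, 39.8 and 46.8 CPM against 174, 106, 80.6 and 124, again without overlap, a difference of 1.39 (SE 0.18, adjusted p = 3.7e-08). The E9.5 differences were 0.71 (adjusted p = 0.0015) and 0.76 (adjusted p = 0.00066). These 4 calls held when any 1 library was left out. At E10.0 and E10.5 no Efna1 difference passed, with values of -0.03 to 0.41. Of the other 7 ephrins, Efna3 passed in 1 comparison (wildtype E9.0, 0.45, adjusted p = 0.034) and Efnb2 in 2 (wildtype E9.5, 0.67, adjusted p = 0.0038, and E10.0 under the Hoxa2-/- label, 0.55, adjusted p = 0.041).

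**Figure D3:**
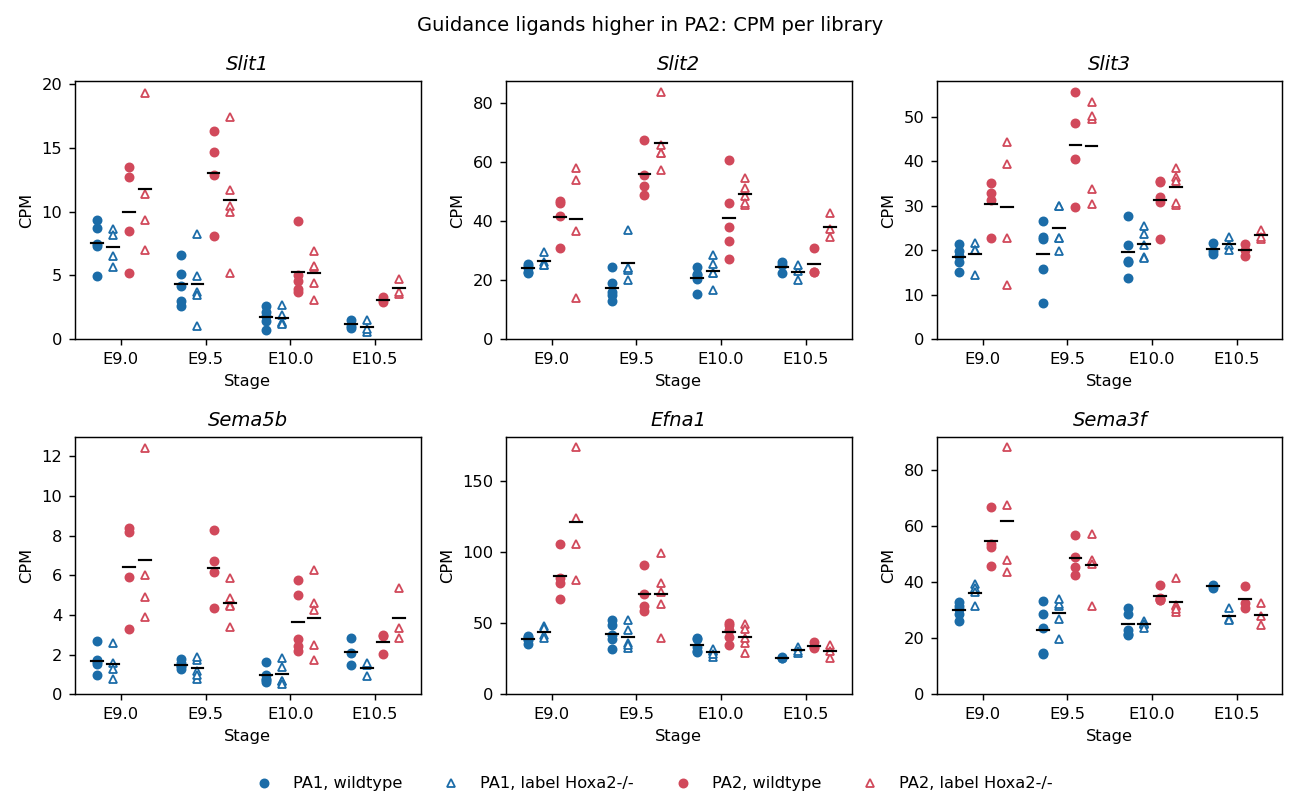
CPM (linear axis from 0) of Slit1, Slit2, Slit3, Sema5b, Efna1 and Sema3f in each of the 68 libraries by stage; filled circles are wildtype, open triangles the Hoxa2-/- label, blue PA1 and red PA2, and black bars are group means. PA2 means lie above PA1 means at E9.0 and E9.5 in all 6 genes under both labels.

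The PA1 side was led by 3 semaphorins and the receptor Epha3. Sema3e (ENSMUSG00000063531, chr5:14025276-14256689, plus strand), which binds Plxnd1 directly, was at 15.6, 11.5, 12, 33.7 and 10.6 CPM in wildtype PA1 at E9.0 and at 1.8, 1.28, 2.59 and 1.57 in PA2. Every PA1 library exceeded every PA2 library, with a difference of -2.54 (SE 0.36, adjusted p = 2.8e-07). PA1 labelled Hoxa2-/- held 11.1, 24.4, 16.5 and 17.7 CPM and PA2 with that label 1.28, 2.55, 1.32 and 11. The highest PA2 library came close to the lowest PA1 library, and the difference was -2.20 (SE 0.38, adjusted p = 1.5e-05). At E9.5 the differences were -1.08 (SE 0.36, adjusted p = 0.021) and -1.77 (SE 0.34, adjusted p = 0.00016). The latter was -1.26 (adjusted p = 0.003) without PA1 replicate 3, in which Sema3e stood at 77 CPM. The wildtype call at E9.5 was lost without PA2 replicate 1 or 3, and the 3 other calls held without any 1 library. At E10.0 the arches were close, with differences of -0.01 and -0.05 (SE 0.34 each).

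Sema3a (ENSMUSG00000028883, chr5:13125414-13602565, plus strand), a secreted repellent of axons and neural crest cells, stood at 110, 95.7, 98.1, 114 and 94.8 CPM in wildtype PA1 at E9.0 and at 51.1, 33, 55.8 and 53.7 in PA2. PA1 labelled Hoxa2-/- held 111, 118, 103 and 125 CPM and PA2 53.7, 50, 24.6 and 50.7. PA1 was above PA2 in every library of both sets, by -1.09 (SE 0.18, adjusted p = 8.7e-06) and -1.39 (SE 0.19, adjusted p = 1.7e-07). In wildtype the difference also passed at E9.5 (-0.59, adjusted p = 0.012) and E10.0 (-0.57, adjusted p = 0.032), and under the Hoxa2-/- label at E9.5 (-0.72, adjusted p = 0.0028). The wildtype calls at E9.5 and E10.0 were lost without any of 2 of 9 (PA1 replicate 5, PA2 replicate 3) and 7 of 10 libraries. At E10.0 wildtype PA1 held 140 to 156 CPM (n = 5) and PA2 90.6 to 122 (n = 5), whereas under the Hoxa2-/- label PA1 held 135 to 175 and PA2 140 to 174, a difference of 0.02 (SE 0.17, adjusted p = 0.98). The difference between these arch differences was 0.59 (SE 0.24) with an adjusted p of 1.

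Sema5a, the relative of Sema5b, was on the opposite side of the arch difference from it. Its wildtype libraries held 45.9, 57.8, 49.7, 34.4 and 47 CPM in PA1 at E9.0 and 20.2, 21.2, 17.8 and 16.7 in PA2, without overlap (-1.25, SE 0.17, adjusted p = 2.2e-07). The Hoxa2-/- label gave -1.33 (SE 0.18, adjusted p = 1.8e-07). At E9.5 the values were -0.51 (adjusted p = 0.024) and -0.43 (adjusted p = 0.089), and the former was lost without any of 3 of the 9 libraries (PA1 replicates 1 and 2, PA2 replicate 3). Epha3 (ENSMUSG00000052504, chr16:63543534-63864175, minus strand), a receptor for A-type ephrins, was at 22, 28, 19.3, 27.9 and 25.3 CPM in wildtype PA1 at E9.0 and at 6.13, 5.29, 5.79 and 2.65 in PA2, again without overlap (-2.13, SE 0.36, adjusted p = 1.1e-05). Under the Hoxa2-/- label PA1 held 6.49, 30.7, 9.46 and 33.4 CPM and PA2 2.05, 8.87, 0.852 and 8.58. These libraries spread widely in both arches and overlapped, but within each embryo PA1 was above PA2. The difference was -1.83 (SE 0.38, adjusted p = 0.00025). Epha7, another EphA receptor, was lower in PA2 at E9.0 by -0.80 (adjusted p = 0.0076) and -0.76 (adjusted p = 0.014). Those Epha7 calls were lost without wildtype PA2 replicate 2 (-0.63, adjusted p = 0.064) and without PA2 replicate 3 labelled Hoxa2-/- (-0.38, adjusted p = 0.22), and the latter also without PA1 replicate 2 or 4.

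Called plexins, Robo receptors and netrins were all on the PA1 side at E9.0, and called netrin receptors on the PA2 side. Of the 10 tested Eph receptors, 2 were higher and 2 lower in wildtype PA2, and 1 higher and 2 lower under the Hoxa2-/- label. Of 8 plexins, 3 were lower in wildtype PA2 and 4 under the Hoxa2-/- label, and none was higher. Plxna1 (-0.79 in wildtype), Plxnc1 (-0.96) and Plxnb2 (-0.62) were in both sets, and Plxna3 passed under the Hoxa2-/- label (-0.65, adjusted p = 0.036). Robo1 held 41.7, 48.5, 43.6, 35.1 and 45.5 CPM in wildtype PA1 and 31.3, 25.1, 26.3 and 26.4 in PA2, which made a difference of -0.63 (SE 0.20, adjusted p = 0.02), and Robo2 differed by -0.68 (adjusted p = 0.049). Both were also lower in PA2 under the Hoxa2-/- label (-1.11 and -0.94, adjusted p = 8.1e-05 and 0.0068), so at E9.0 the Slit receptors and the wildtype Slit2 and Slit3 ligands lay on opposite sides. Ntn1, the main netrin, was at 4.44, 7.92, 4.41, 3.31 and 5.5 CPM in wildtype PA1 and 1.03, 0.909, 1.27 and 4.65 in PA2, where a PA2 library overlapped PA1 (-1.16, SE 0.34, adjusted p = 0.011). Under the Hoxa2-/- label all 4 PA2 libraries were under 1 CPM (0.379 to 0.986) and PA1 held 2.71 to 6.29 (-1.86, SE 0.36, adjusted p = 9.2e-05). Several of these calls rested on the libraries that stood apart. Without wildtype PA2 replicate 2 the wildtype calls of Plxnb2, Robo1, Robo2 and Ntn1 were lost (adjusted p = 0.07, 0.055, 0.23 and 0.053), while Plxna1 and Plxnc1 passed. Replicate 3 of PA2 labelled Hoxa2-/- was the lowest of its group for Plxna1 (23.8 CPM), Plxna3 (4.83), Plxnb2 (60.5), Plxnc1 (0.662), Robo1 (9.09) and Robo2 (2.84). Without it the calls of Plxna3, Plxnb2, Robo2 and Ntn4 under that label were lost (adjusted p = 0.4, 0.27, 0.17 and 0.1), while Plxna1, Plxnc1, Robo1 and Ntn1 passed.

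The repulsive netrin receptor Unc5b was higher in PA2 at E9.0, at 17.1, 17.3, 11.7, 16.4 and 17.1 CPM in wildtype PA1 and 40.6, 26.3, 36.9 and 24.5 in PA2. The arches did not overlap and differed by 0.95 (SE 0.26, adjusted p = 0.0062). Under the Hoxa2-/- label the difference was 0.80 (adjusted p = 0.025). Epha2, a receptor of epithelia, was higher in PA2 at E9.0 under both labels (0.98 and 0.89, adjusted p = 0.00014 and 0.00086), as was the secreted Sema3c (1.00 and 1.28, adjusted p = 0.013 and 0.002). Sema3d, another secreted member, was at 24, 20.2, 23.1, 23.5 and 22.7 CPM in wildtype PA1 at E9.0 and 43.7, 28, 47.2 and 49.3 in PA2, and passed there and at E9.5 (0.83 and 1.18) and at E9.5 under the Hoxa2-/- label (0.84). Nrp1 was higher in PA2 in wildtype at E9.5 (0.80, adjusted p = 0.023) and under the Hoxa2-/- label at E9.0 (0.99, adjusted p = 0.008). Dcc, low throughout, was higher in wildtype PA2 at E9.0, E9.5 and E10.0 (0.61, 1.35 and 0.93, adjusted p = 0.032, 2.8e-06 and 0.00078) and at E9.5 under the Hoxa2-/- label (0.89, adjusted p = 0.0011). At E10.5 the wildtype call was Plxna2, a receptor for class 6 semaphorins, at 73, 77.3 and 77.3 CPM in PA1 and 35.2, 39.4 and 38.1 in PA2 (-1.0, SE 0.26, adjusted p = 0.026). The PA1 libraries lay well above the PA2 libraries, but the call was lost when any 1 of the 6 libraries was left out.

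**Figure D4:**
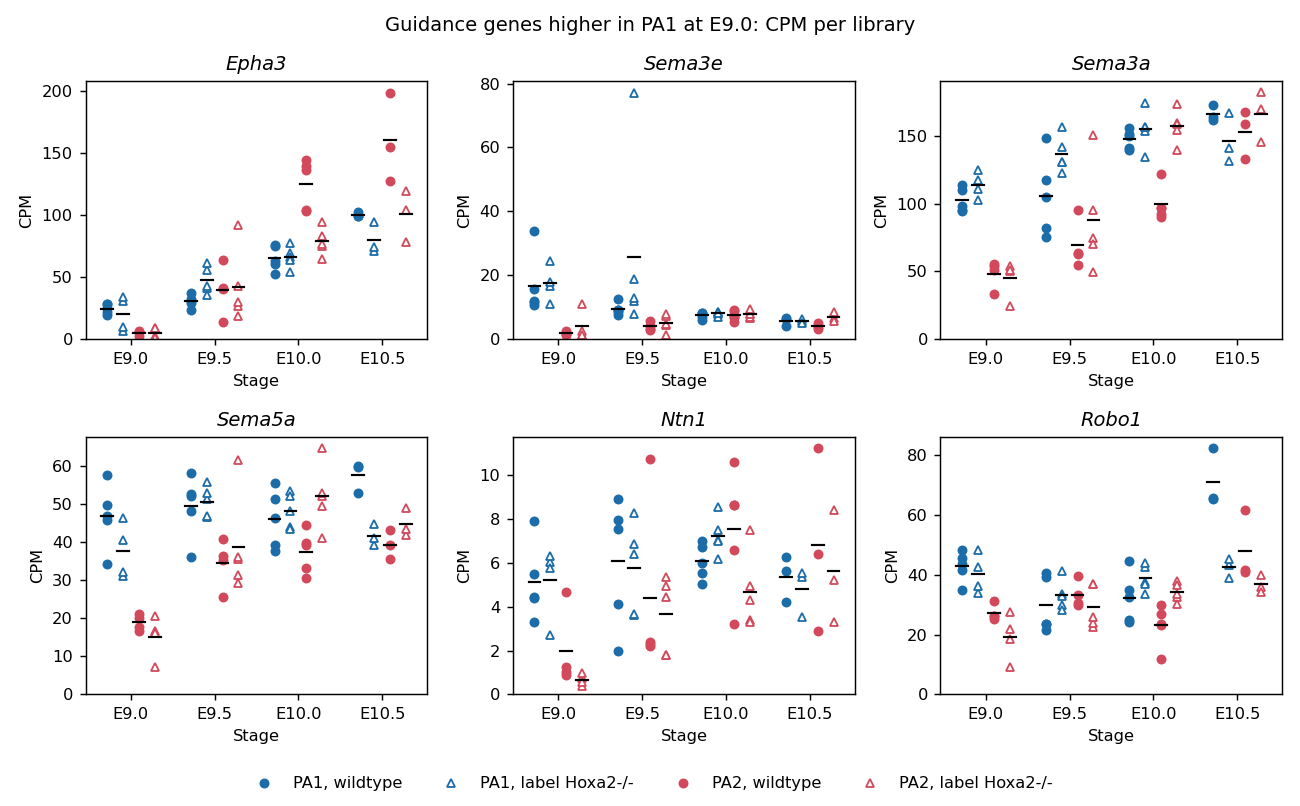
CPM (linear axis from 0) of Epha3, Sema3e, Sema3a, Sema5a, Ntn1 and Robo1 in each of the 68 libraries by stage; filled circles are wildtype, open triangles the Hoxa2-/- label, blue PA1 and red PA2, and black bars are group means. PA1 means exceed PA2 means at E9.0 in all 6 genes under both labels, and Epha3 rises in both arches.

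Cell type markers also differed between the arches. The summed level of 10 neuron genes was 37.6 to 55 CPM in wildtype PA1 and 110 to 227 in PA2 at E9.0, 32.3 to 52 and 89.2 to 155 at E9.5, and 43 to 49.8 and 80.4 to 88.9 at E10.5. Isl1, which pharyngeal mesoderm also expresses and which both lists hold, made up most of this sum, with means of 29.3 CPM in wildtype PA1 and 131 in PA2 at E9.0. Of the 10 neuron genes, 5 were higher in wildtype PA2 at E9.0 and 1, Neurog1, was lower (-0.74, adjusted p = 0.0076), and 2 were higher and none lower under the Hoxa2-/- label. At E10.5, Neurog1 was at 0 in all wildtype libraries of both arches. The 6 genes of pharyngeal mesoderm and muscle stood at 64.7 to 90.5 CPM in wildtype PA1 and 207 to 241 in PA2 at E9.0 (3 called higher, and Msc lower), and the 6 cardiac muscle genes at 18.7 to 46.2 and 60.3 to 1237. The sum of 7 mesenchyme genes went the other way in wildtype, at 632 to 768 CPM in PA1 and 385 to 440 in PA2. Of these genes, Prrx2 and Snai2 were not called in wildtype (0.25 and -0.30). Under the Hoxa2-/- label Prrx2 was called higher in PA2 (0.52, adjusted p = 0.00087), and Snai2 (0.38) and Col1a2 (-0.66) were not called. The libraries labelled Hoxa2-/- gave 37.5 to 51.8 and 114 to 194 CPM for neurons at E9.0. For mesenchyme they gave 557 to 667 and 391 to 669 CPM, so the arches overlapped. The 2 neural tube genes stayed at or under 5.71 CPM at E9.0 in all groups. At E9.0 the neuron, pharyngeal mesoderm and cardiac sums, and in wildtype the mesenchyme sum, moved with the arch. They did so in the same libraries as the PA2-high and PA1-high guidance genes. The part of these markers in those differences was not tested. Wildtype PA2 replicate 2 of E9.0 held the cardiac sum of 60.3 CPM, far below the 1127 to 1237 of the others.

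From E9.0 to E10.5, 9 guidance genes rose and 5 fell in both arches under both labels. The counts were 20 higher and 10 lower in wildtype PA1 (21% and 21.5% of all genes), 23 and 13 in wildtype PA2 (17.5% and 19.4%), 16 and 12 in PA1 labelled Hoxa2-/- (14.8% and 16.5%), and 22 and 8 in PA2 labelled Hoxa2-/- (15.8% and 15.1%). As shares of the 60 genes, higher calls were above the share of all genes in all 4 comparisons, and lower calls were near it. The genes that rose in all 4 were Efna4, Efnb3, Epha3, Epha4, Epha7, Ntn4, Robo4, Sema6a and Sema6c. The Sema6a call was lost without any of 4 of 7 libraries in PA1 labelled Hoxa2-/-, and without 1 of 7 in each PA2 comparison. Those that fell in all 4 were Efna1, Ephb1, Plxna4, Sema4d and Slit1. Of the 10 tested Eph receptors, 6 rose and 1 fell in wildtype PA1, and 6 rose and 2 fell in wildtype PA2. With each library left out in turn, the count for PA2 labelled Hoxa2-/- was 23 to 34. For wildtype PA2 the count was 36 without replicate 2 of E9.0. Fitted on the compared groups alone, the count for PA2 labelled Hoxa2-/- fell from 30 to 19. The shares of all genes in these fits are not given here.

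Epha3 showed the largest rise of these genes. In wildtype PA2 it went from 6.13, 5.29, 5.79 and 2.65 CPM at E9.0 to 155, 198 and 127 at E10.5, and in wildtype PA1 from 19.3 to 28 CPM (n = 5) to 99, 102 and 98.8. No E10.5 library overlapped E9.0 in either arch. The rises were 4.78 (SE 0.41, adjusted p = 3.7e-14) in PA2 and 2.00 (SE 0.39, adjusted p = 3.2e-05) in PA1, and 4.38 and 2.23 under the Hoxa2-/- label (adjusted p = 2e-12 and 2.1e-05). Epha7 (ENSMUSG00000028289, chr4:28813131-28967499, plus strand) rose from 22.5, 13, 24.1 and 19.4 CPM to 97.5, 104 and 77.4 in wildtype PA2, by 2.20 (SE 0.26, adjusted p = 4.8e-10), and by 1.21 to 2.01 in the other 3 comparisons. Epha4 (ENSMUSG00000026235, chr1:77367185-77515088, minus strand), a receptor for both ephrin classes, rose from 12.9, 17.9, 9.53, 12.3 and 15 CPM to 68.3, 81.5 and 67.6 in wildtype PA1, by 2.36 (SE 0.20, adjusted p = 1.7e-14). Its rise in wildtype PA2 was 0.97 (SE 0.21, adjusted p = 0.00015). In PA2 labelled Hoxa2-/- the Epha4 rise of 0.61 was 0.34 (adjusted p = 0.21) without replicate 3 of E9.0 and 0.52 (adjusted p = 0.1) without replicate 1 of E10.5. The stage calls of Epha3 and Epha7 held when any 1 library was left out.

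The ligands Efnb3 and Sema6c and the receptor Robo4 rose too. The transmembrane ligand Efnb3 went from 9.35, 10.4, 4.66, 9.94 and 9.38 CPM to 21.5, 24.7 and 21 in wildtype PA1, and rose by 1.26 to 1.50 over the 4 comparisons. Sema6c, a transmembrane semaphorin, went from 3.97, 7.05, 3.02, 3.24 and 7.07 CPM to 17.3, 20.8 and 20.8 in wildtype PA1, and rose by 1.02 to 1.88. Robo4, a receptor of endothelial cells, went from 4.18, 4.07, 2.26, 2.9 and 2.75 CPM to 6.04, 10.3 and 7.49, and rose by 1.04 to 1.51. The Efnb3 and Robo4 calls held when any 1 library was left out, as did those of Sema6c except in PA2 labelled Hoxa2-/- (0.80, adjusted p = 0.072, without replicate 1 of E10.5). In each of these genes the E10.5 libraries of wildtype PA1 all lay above those of E9.0. The 8 endothelium genes summed to 299 to 364 CPM in wildtype PA1 at E9.0 and to 164 to 191 at E10.5. Of them, Pecam1 was called higher at E10.5 there (0.46, adjusted p = 0.032), Emcn was not called and the others were called lower. In PA2 labelled Hoxa2-/- the sums of the 2 stages overlapped, at 206 to 506 and 219 to 272 CPM. The part of endothelial cells in the Robo4 rise was not tested.

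Plxna4 (ENSMUSG00000029765, chr6:32144268-32588192, minus strand), a Sema3a receptor, fell the most. In wildtype PA1 it went from 29.6, 21.7, 27.5, 21.7 and 24.9 CPM to 2.78, 3.11 and 3.9, and in wildtype PA2 from 33, 25.1, 23 and 19.6 to 2.22, 2.63 and 2.66. The stages were far apart in both arches, with changes of -2.61 (SE 0.39, adjusted p = 1.6e-07) and -2.88 (SE 0.41, adjusted p = 6.9e-08), and -2.70 and -2.17 in PA1 and PA2 labelled Hoxa2-/-. Slit1 went from 8.67, 7.26, 7.43, 4.9 and 9.33 CPM to 0.871, 1.05 and 1.51 in wildtype PA1, a change of -1.98 (SE 0.32, adjusted p = 8.1e-07), and changed by -2.09 to -1.28 in the other 3. Efna1 fell by 1.24 in wildtype PA2 (SE 0.19, adjusted p = 5.9e-07), from 106, 67.2, 78.5 and 82 CPM to 32.6, 36.7 and 33.7, and by 0.56 in wildtype PA1 (SE 0.18, adjusted p = 0.012). In PA1 labelled Hoxa2-/- the Efna1 call was lost without any of 6 of the 7 libraries, whereas the Plxna4 and Slit1 calls held in each comparison. Ephb1 changed by -0.98 to -0.59, and Sema4d, the ligand of Plxnb1, by -0.75 to -0.54. The Ephb1 call was lost without any of 2 of 8 libraries in wildtype PA1, 2 of 7 in wildtype PA2 and 3 of 7 in PA1 labelled Hoxa2-/-, and the Sema4d call without any of 2 of 7 in PA2 labelled Hoxa2-/-. Over the same interval the 5 genes of migrating neural crest and glia went from 80.8 to 123 CPM down to 19 to 24.5 in wildtype PA1 and from 74.1 to 117 down to 20 to 30.1 in wildtype PA2. The 6 epithelium genes went from 734 to 1087 down to 386 to 458 in wildtype PA1. The part of these markers in the falls was not tested.

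**Figure D5:**
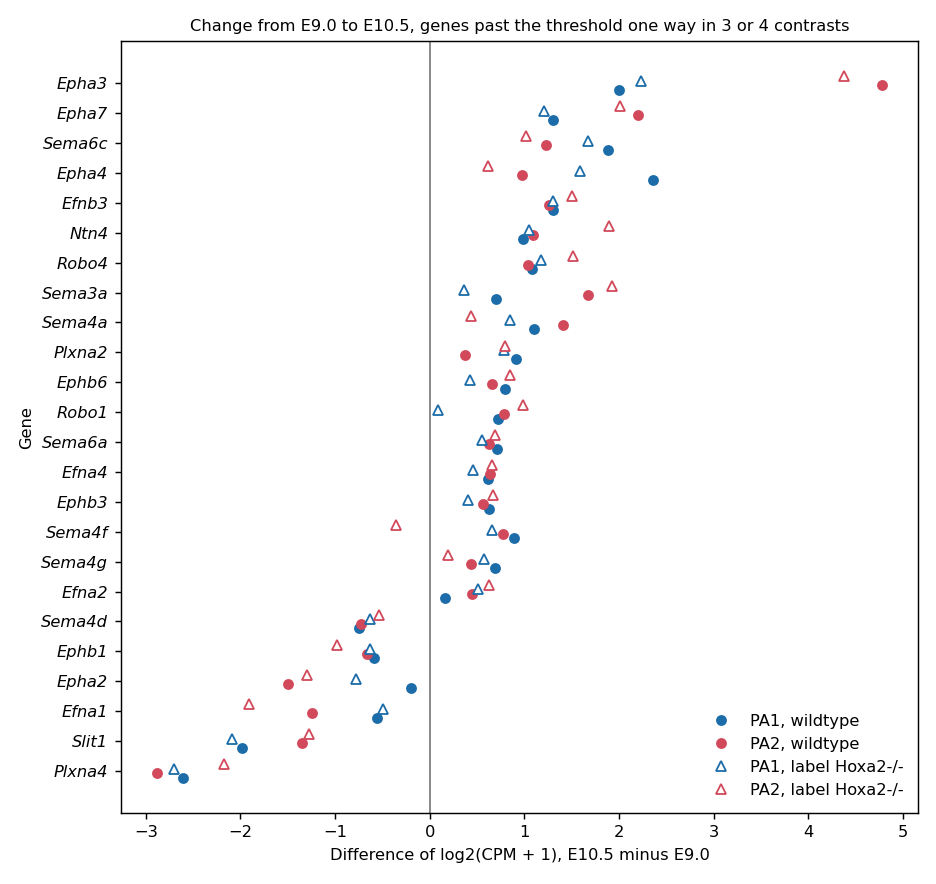
Difference E10.5 minus E9.0 on the log2(CPM + 1) scale for guidance genes past the threshold in the same direction in 3 or 4 of the 4 arch and label comparisons. Epha3 lies farthest to the rising side, up to 4.78 in wildtype PA2, and Plxna4 farthest to the falling side, down to -2.88 in wildtype PA2.

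Whether the arch difference itself changed from E9.0 to E10.5 was tested after the stage and arch results had been seen. In wildtype it changed for 8 guidance genes (3 toward PA2, 5 toward PA1), where 3.35% of all genes changed, and under the Hoxa2-/- label for 12 (7 toward PA2, 5 toward PA1), where 7.33% did. Epha3, Sema3e and Sema3a moved toward PA2 under both labels: Epha3 by 2.78 (SE 0.57, adjusted p = 0.0013) and 2.15 (SE 0.58, adjusted p = 0.015), Sema3e by 2.13 (adjusted p = 0.019) and 2.43 (adjusted p = 0.0058), and Sema3a by 0.97 (adjusted p = 0.041) and 1.57 (adjusted p = 0.00038). Unc5b and Epha4 moved toward PA1 under both, Unc5b by -1.75 (SE 0.41, adjusted p = 0.0058) and -1.54 (SE 0.42, adjusted p = 0.016), and Epha4 by -1.39 (adjusted p = 0.0015) and -0.98 (adjusted p = 0.03). Unc5b shows the change in its values: wildtype PA2 exceeded PA1 at E9.0, but at E10.5 PA2 held 6.52, 9.96 and 8.2 CPM against 15.1, 14.7 and 14.8 in PA1. Epha4 at E10.5 likewise held 48.7, 50.6 and 48.5 CPM in wildtype PA2 against 68.3, 81.5 and 67.6 in PA1. The count under the Hoxa2-/- label fell to 6 without PA1 replicate 1 and to 7 without PA2 replicate 2 of E10.5. The wildtype count was 9 without PA2 replicate 2 of E9.0. Fitted on the compared groups alone, the counts were 14 in wildtype and 3 under the Hoxa2-/- label. The shares of all genes in these fits are not given here.

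Between the labels, few guidance genes differed outside PA1 at E9.5. In PA1, limma called none at E9.0 (unadjusted p under 0.05 in 1, 0 by edgeR, where 2.08% of all genes were called) or at E10.0 (1 unadjusted, 0 by edgeR, 0% of all genes), and 1 was called at E10.5 (3.05% of all genes). In PA2, 4 were called at E9.0 (14% of all genes), none at E9.5 (3 unadjusted, 0 by edgeR, 4.48% of all genes) or E10.0 (5 unadjusted, 0 by edgeR, 0.0814%), and 2 at E10.5 (10.3%). In PA2 these shares of guidance genes lay below the share of all genes at E9.0 and E10.5. At E9.5 and E10.0 so few of all genes were called that a count of 0 cannot be read as a lower share. Differences in the following are Hoxa2-/- label minus wildtype. Epha4 was lower in both arches at E10.5, at 41.6, 37.4 and 40.7 CPM against 68.3, 81.5 and 67.6 in PA1 (-0.84, SE 0.22, adjusted p = 0.021) and at 30.4, 26 and 24.4 against 48.7, 50.6 and 48.5 in PA2 (-0.85, SE 0.22, adjusted p = 0.0075). Efna2, an EphA ligand, was higher in PA2 at E10.5, at 68.2, 57 and 58.6 CPM against 43.4, 42.1 and 39.7 (0.54, SE 0.15, adjusted p = 0.016). None of these groups overlapped. The Epha4 call in PA1 was lost without any of 4 of the 6 libraries (Hoxa2-/- label replicates 2 and 3, wildtype replicates 1 and 2), that in PA2 held without any 1 library, and the count in PA2 was 1 without replicate 1 labelled Hoxa2-/- or wildtype replicate 3. Fitted on the compared groups alone, the E10.5 counts were 6 in PA1 and 14 in PA2, and the shares of all genes in those fits are not given here. The wildtype libraries of that stage are those with high Ski, and label and division cannot be told apart. At E10.0, the stage whose libraries all fell on the low-Ski side, Sema3a in PA2 differed by 0.66 (SE 0.17, adjusted p = 0.16), with PA2 at 140 to 174 CPM under the Hoxa2-/- label and 90.6 to 122 in wildtype.

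In PA1 at E9.5, 12 guidance genes were called (10 higher, 2 lower under the Hoxa2-/- label). These were 20% of the 60 tested, where 23.6% of all genes were called, so the guidance genes were not above that share. The higher genes were Efnb1, Efnb2, Efnb3, Epha1, Ephb6, Nrp1, Plxna2, Sema3e, Sema4c and Slit2, and the lower were Efna4 and Efna5. This count rested on single libraries. It was 4 without wildtype PA1 replicate 1, 4 without wildtype replicate 3, 6 without replicate 3 labelled Hoxa2-/- and 20 without wildtype replicate 2, and it was 1 when fitted on the compared groups alone. The shares of all genes in these fits, and in those for PA2 at E9.0 below, are not given here. Sema4c, a ligand of Plxnb2, shows how those wildtype libraries stood: 4, 42.6, 3.96, 27.3 and 34.6 CPM in wildtype and 38.7, 37.2, 39.3, 45.2 and 34.4 under the Hoxa2-/- label. Replicates 1 and 3 of the wildtype were near 4 CPM and the other 3 were in or near the range of the other group. In PA2 at E9.0, Sema4f, Sema4a and Efna5 were higher (0.59, 0.67 and 0.40) and Sema3d lower (-0.78, adjusted p = 0.0041), a count of 4 that became 8 without PA2 replicate 2 labelled Hoxa2-/-, 7 without wildtype PA2 replicate 1 and 0 when fitted on the compared groups alone. The test of whether the label difference differed between the arches called 0 guidance genes at every stage, with 4, 6, 2 and 2 at an unadjusted p under 0.05 from E9.0 to E10.5 and 0 by edgeR. Among all genes 0%, 0.0109%, 0.0163% and 0.038% were called.

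Co-receptors, related ligands and intracellular partners of these systems were drawn from a list of 48 genes, of which 44 were tested. In wildtype PA2, from the earliest to the latest stage, 3, 12, 7 and 2 were higher and 9, 3, 2 and 0 lower. The Hoxa2-/- label gave 6, 7, 7 and 2 higher and 9, 0, 1 and 0 lower. As shares of the 44, the wildtype counts were 6.82%, 27.3%, 15.9% and 4.55% higher and 20.5%, 6.82%, 4.55% and 0% lower, where 10.2%, 12.7%, 4.51% and 0.868% of all genes were higher and 8.53%, 13.7%, 1.43% and 0.651% lower. Their share on the PA2 side was thus below that of all genes at E9.0 and above it at the later stages. The shares under the Hoxa2-/- label were 13.6%, 15.9%, 15.9% and 4.55% higher, against 12.1%, 6.12%, 3.13% and 0.982% of all genes, and 20.5%, 0%, 2.27% and 0% lower, against 12.5%, 3.47%, 1.1% and 0.385%. As with the guidance genes, calls lay on both sides at E9.0 and mostly on the PA2 side at E9.5. Ntng1, a membrane-anchored netrin relative, was higher in wildtype PA2 by 0.94, 1.07 and 0.94 at E9.0, E9.5 and E10.0, and Crmp1, a cytoplasmic mediator of Sema3a signals, by 1.31 at E9.5 (adjusted p = 1.5e-07). From E9.0 to E10.5 the adhesion molecule L1cam, a partner of Nrp1, changed by -1.48, -1.88, -2.09 and -1.90 in wildtype PA1, wildtype PA2, and PA1 and PA2 labelled Hoxa2-/-, and Flrt2, an Unc5 ligand, by 1.70, 2.03, 1.81 and 2.32. In all 4 of these comparisons L1cam fell and Flrt2 rose.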

How the data were processed

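Polyadenylated RNA of hand-dissected mouse PA1 and PA2 was sequenced as amplified low-input libraries, per the labels' protocols; no molecular identifiers are described there. Per the submitters' processing notes the tools were bcl2fastq 2.18, TopHat2 2.1.1 and R 3.3.2 with the genome build mm10; the counter and annotation are not given in the sources used here. The deposited table holds normalized expression signal per gene: the authors scaled read counts by a factor per library, and column totals run from 926298 to 1051959. Within a tolerance of 0.1 reads, 100.0% of values were whole multiples of the value of 1 read, which gave 8912251 to 20619153 reads per library. The design assumed CPM, and the signal was used in its place and is called CPM here. Intervals of counting error are limited by these depths, and 3 reads are at most 0.328 CPM. Of the gene identifiers, 21932 had a symbol, and positions are from the mm10 (GRCm38) annotation GENCODE M21.

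Genes with at least 1 CPM in at least 3 libraries (18428) were tested with limma 3.58.1 (R 4.3.3) on log2(CPM + 1), with a mean per group over all 68 libraries, an intensity trend, 2-sided tests and Benjamini-Hochberg adjustment over all tested genes within each comparison. The code was tested on simulated data. edgeR 4.0.16 was run on the recovered reads as an alternative, and called 3637 genes between the arches of wildtype E9.0, where limma called 3454. The alternatives also included each library left out, a replicate block, a fit on the compared groups alone, median-of-ratios scaling, a filter at 5 CPM or none, a pseudocount of 0.25 or 5, and, at E10.0, leaving out the libraries with raised yolk sac genes. The test of whether the arch difference changed between E9.0 and E10.5 was chosen after seeing the data. Pairing came from the series text, which says that both arches were taken from the same embryo: over 33 pairs of the same number, deviations from group means correlated with a median of 0.35 (30 pairs over 0.1), against -0.12 for 116 pairs of different numbers. No replicates agreed within sampling noise.

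The guidance genes and the gene lists were chosen with earlier results of these data known. Full values were given for genes past the threshold in the same direction in at least 3 of 8 arch comparisons or in all 4 stage comparisons (up to 8 and 6 per direction, ranked by mean difference), for genes called at E10.0 between labels, and for the 3 highest per kilobase in each family, with at least 5 CPM in a compared group. Other genes given values (among them Sema4f, Dcc, Plxna2, Plxnc1, Sema3c, Sema3d, Epha2 and the genes called between labels) were picked after their values were seen.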

Additional observations from a re-analysis of the deposited data

Results flagged for a closer look

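Among 240 combinations of a fully described guidance gene and a group of 4 or 5 libraries, 14 held a library whose gap to its nearest neighbour was large for the range of the group, where chance gives about 1 in 20. Of these, 6 were in PA2 at E9.0. In wildtype PA2 replicate 2, the library with the red blood cell genes, Epha4 was at 16.9 CPM (others 27.4 to 28.1), Ephb1 at 2.67 (others 4.69 to 5.09) and Sema3a at 33 (others 51.1 to 55.8). In replicate 3 of PA2 labelled Hoxa2-/-, the library with the yolk sac genes, Ephb1 was at 3.6 CPM (others 6.57 to 7.38), Plxna4 at 9.65 (others 26.3 to 28.3) and Sema3a at 24.6 (others 50 to 53.7). All 6 values were the lowest of their groups, and the part of those markers in them was not tested.

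Replicate 4 of PA2 labelled Hoxa2-/- at E9.5 was low for Plxna4, at 5.68 CPM (others 17.7 to 24.5), and high for Sema5a, at 61.6 (others 29.3 to 36.1). Sema3f was highest in wildtype PA2 replicate 4 at E10.0, at 39.1 CPM (others 33.9 to 34.4), and in replicate 1 of PA2 labelled Hoxa2-/- at E10.0, at 41.6 (others 29.5 to 31.8). Sema3a was highest in wildtype PA2 replicate 5 at E10.0, at 122 CPM (others 90.6 to 97.2). Robo4 was at 9.07 CPM in wildtype PA2 replicate 5 at E9.5 (others 4.34 to 4.38). Efnb3 was at 4.66 CPM in wildtype PA1 replicate 3 at E9.0 (others 9.35 to 10.4), and Epha7 at 77.4 in replicate 5 of PA1 labelled Hoxa2-/- at E10.0 (others 87.9 to 91.3).

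The arch difference (PA2 minus PA1, log2(CPM + 1)) differed between E9.0 and E10.5 by a test of the difference itself for 8 guidance genes in wildtype. It rose for Epha3 (2.78), Sema3e (2.13) and Sema3a (0.97), and changed by -1.75 for Unc5b, -1.39 for Epha4, -1.30 for Epha2, -1.20 for Sema3d and -1.02 for Sema3f. Epha2 is a receptor of epithelia, and the adjusted p-values of Epha2, Sema3d and Sema3f were 0.0059, 0.0083 and 0.016. Under the Hoxa2-/- label 12 genes passed. It rose for Sema3e (2.43), Epha3 (2.15), Ntn1 (1.99), Sema3a (1.57), Sema5a (1.43), Efnb2 (0.92) and Plxna1 (0.85), and changed by -1.59 for Sema3c, -1.54 for Unc5b, -1.42 for Efna1, -1.02 for Sema4f and -0.98 for Epha4. Of the 7 genes that rose under this label, all but Efnb2 had been called lower in PA2 at E9.0. The E9.0 difference is the baseline of this test, so such genes are favoured by it.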

How the results depend on the processing

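Depth limits genes of a few reads: at most 0.328 CPM stand for 3 reads, which touches Dcc, Sema4f, Slit1 at E10.5 and Ntn1 in PA2 at E9.0. Groups of 3 libraries at E10.5 gave the fewest calls between arches. Of 123 called differences of 20 fully described guidance genes, 88 passed when any 1 library was left out, and none of 1999 alternative values changed direction. The calls lost were 21 of 123 in a fit on the compared groups alone, 6 with a pseudocount of 5, 1 with a pseudocount of 0.25, 5 with no filter, 2 with median-of-ratios scaling, 2 with edgeR, 0 with a filter of 5 CPM, 1 with the replicate block and 2 of 10 without the yolk sac libraries. Median-of-ratios scaling moved the median of all genes by at most 0.022.

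Fitted on the compared groups alone, the number of guidance genes called between the arches became 9 at E9.0, 14 at E10.0 and 6 at E10.5 under the Hoxa2-/- label and 7 in wildtype at E10.5. Between stages it became 19 in PA2 labelled Hoxa2-/-. Between labels it became 1 at E9.0, 1 at E9.5 and 6 at E10.5 in PA1, and 0, 1 and 14 in PA2 at E9.0, E10.0 and E10.5. For the change of the arch difference with stage it became 14 in wildtype and 3 under the Hoxa2-/- label. With no filter, 1 gene was called between labels in PA1 at E9.0. With a pseudocount of 5, 4 were called between labels in PA2 at E10.5, and between arches at E10.5 there were 0 under the Hoxa2-/- label and 2 in wildtype. With the replicate block, which pairs the arches of an embryo, the arch counts at E10.0 became 15 in wildtype and 11 under the Hoxa2-/- label, and those of E10.5 became 2 and 2; no other count moved by over 1.5 times. Fewer samples enter the fits on compared groups, and the cause of the other changes was not tested. Except for the replicate block, the shares of all genes in these fits and with each library left out are not given here. These counts therefore do not set the guidance genes apart from all genes.

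Leaving out each library in turn gave 21 to 26, 18 to 31, 6 to 10 and 0 to 0 calls between wildtype arches from E9.0 to E10.5, and 22 to 27, 11 to 17, 4 to 8 and 0 to 2 under the Hoxa2-/- label. Between stages it gave 27 to 31 and 27 to 36 in wildtype PA1 and PA2, and 24 to 28 and 23 to 34 under the Hoxa2-/- label. Between labels it gave 0 to 0, 4 to 20, 0 to 0 and 0 to 1 in PA1, and 3 to 8, 0 to 0, 0 to 0 and 1 to 3 in PA2. For the change of the arch difference it gave 6 to 9 in wildtype and 6 to 15 under the Hoxa2-/- label, and for the label difference between arches 0 to 0 at each stage.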

Other observations

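Several guidance genes changed from E9.0 to E10.5 past the threshold in a given arch under both labels. In PA2, Sema3a rose by 1.67 in wildtype and 1.93 under the Hoxa2-/- label (adjusted p = 2.9e-09 and 9.2e-11), Sema5a by 1.02 and 1.59 (adjusted p = 4.1e-05 and 5.2e-09) and Ntn1 by 1.41 and 1.93 (adjusted p = 0.0029 and 8.1e-05), while Unc5b fell by 1.83 and 1.49 (adjusted p = 1.3e-06 and 7e-05). In PA1, the secreted Sema3c rose by 1.34 and 1.51 (adjusted p = 0.00066 and 0.00047), while Sema3e fell by 1.31 and 1.44 (adjusted p = 0.005 and 0.005) and the transmembrane Sema6b fell by 1.51 and 1.41 (adjusted p = 7.3e-06 and 9.6e-05). In the other arch the same genes gave, in wildtype and under the Hoxa2-/- label, 0.70 and 0.36 for Sema3a, 0.31 and 0.16 for Sema5a, 0.09 and -0.06 for Ntn1, -0.08 and 0.05 for Unc5b, 0.06 and -0.08 for Sema3c, 0.82 and 0.99 for Sema3e and -0.68 and -0.28 for Sema6b. Sema3a also passed in wildtype PA1 (adjusted p = 0.0034). In the test of the difference between the arches, Sema3a, Sema3e and Unc5b passed under both labels. Sema5a, Ntn1 and Sema3c passed under the Hoxa2-/- label but not in wildtype (0.71, 1.32 and -1.28, adjusted p = 0.15, 0.18 and 0.13), and Sema6b under neither (0.83 and 1.12, adjusted p = 0.29 and 0.072).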
